A study of Caenorhabditis elegans with 53 samples.

Results

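Cadherin genes of Caenorhabditis elegans were followed in nuclear RNA of neurons and of whole animals across development, with cdh-12 as the gene that led to the choice of the family. The 10 genes are hmr-1, cdh-1, cdh-3, cdh-4, fmi-1, cdh-5, cdh-7, cdh-8, cdh-10 and cdh-12. They were taken by name, with cdh-12 and cdh-8 selected on their neuronal IP values at L4 and in adults, from the 41897 genes of the deposited count table. A further table, of size-adjusted values for genes that the authors kept as neuronal, holds 7974 genes and contains 6 of the 10, namely hmr-1, cdh-1, cdh-4, fmi-1, cdh-8 and cdh-12. The fall of cdh-12 and cdh-8 in neurons from the last larval stage to the adult had been seen in earlier work on these data, so that contrast is described here without a test.

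Every animal carried the transgene UPN INTACT (otIs790), which marks the nuclei of neurons so that they can be pulled down from homogenised worms; the pulled-down material is called neuronal IP and the unselected nuclei are called input. Mutant neuronal IP came from adults with the lin-4(e912) null allele (4 libraries, 57 ± 2 h after plating of synchronised L1 larvae), adults with a lin-14 gain of function (5 libraries, 57 ± 2 h), adults with a lin-28 gain of function (3 libraries, 53 ± 2 h) and L1 larvae with lin-4(e912) (3 libraries, 8 ± 1 h). The growth protocol names the gain-of-function alleles lin-14(ot1087) and lin-28(ot1088), whereas the genotype labels give lin-14(e1087) and, for the lin-28 libraries, lin-14(e1088); the groups here follow the sample titles. Control neuronal IP, without these alleles, comprised 4 L1 libraries (8 ± 1 h), 5 L2 libraries (21 ± 1 h), 6 L4 libraries (40 ± 2 h) and 7 adult libraries (53 ± 2 h), and control input comprised 4, 3, 4 and 5 libraries of the same stages. Each library pooled about 600000 animals at L1 and L2 or about 200000 at L4 and in adults, so the level of a gene is an average over all tagged neurons, and fewer expressing cells cannot be told apart from less RNA per cell. The mutant adults of lin-4 and lin-14 were collected later than their controls because, per the labels, they develop more slowly, and no mutant input was analysed here.

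Cadherins are adhesion proteins of the cell surface whose extracellular repeats bind calcium and usually bind the same or a related cadherin on the neighbouring cell. The classical cadherin HMR-1 is held to the actin skeleton by catenins and builds the adherens junctions of worm epithelia, and a neuronal form of it acts in axon bundling. CDH-1 is related to Dachsous and CDH-3 and CDH-4 to Fat of the fly, very large cadherins known there for planar polarity, and FMI-1 is the worm Flamingo, which is known for guiding axons. The microRNA gene lin-4 and its targets lin-14 and lin-28 are heterochronic genes: they set which larval stage a cell behaves as, and lin-4 shuts lin-14 and lin-28 down as larvae mature.

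The genes differ widely in size, which matters for comparing levels between them. The coordinates below are those of the deposited count table, whose genome build is not given in the sources used here, and exon length is the merged length over which reads were counted. The classical cadherin hmr-1 (WBGene00001980) lies at I:11076365-11134552 on the minus strand, with 32 exons of 9240 bases in all and 6 other genes within its span. The Dachsous-like cdh-1 (WBGene00019994) lies at III:2910962-2935549 on the plus strand with 20 exons of 8340 bases. The Fat-like cdh-3 (WBGene00000395) lies at III:7741330-7754383 on the minus strand with 22 exons of 10086 bases, and cdh-4 (WBGene00000396) at III:4520427-4536629 on the plus strand with 21 exons of 12987 bases. The Flamingo gene fmi-1 (WBGene00001475) lies at V:13019073-13033134 on the plus strand with 25 exons of 7791 bases. Among the others, cdh-12 (WBGene00022103) lies at III:1152034-1180901 on the plus strand with 26 exons of 8715 bases, and cdh-8 (WBGene00017576) at IV:339808-358882 on the plus strand with 26 exons of 5055 bases. The shorter cdh-5 (WBGene00000397), cdh-7 (WBGene00000399) and cdh-10 (WBGene00000402) lie at IV:8669129-8676235 (plus strand, 4391 exon bases), II:14843252-14850599 (plus strand, 4095 exon bases) and IV:2436567-2463364 (minus strand, 5328 exon bases). Overlap with exons of other genes was 0.47% of the exon bases of cdh-4 and 0.21% of those of cdh-3 and of cdh-10, and none for the other 7, so shared reads could touch these genes little.

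Control libraries held 8582120 to 53251753 counts in neuronal IP and 9960845 to 41927678 in input, and cadherin counts per library ranged from 9 for cdh-7 to 45252 for cdh-4. Levels are given as CPM, the count scaled to library size with TMM factors, or as CPM per kilobase of exon where genes are compared with each other. As a check of the label, 13 of 13 neuronal marker genes were higher in neuronal IP than in input at each of the 4 stages, with median log2 fold changes of 2.61, 2.60, 3.71 and 3.90 from L1 to adult. Other tissues remained measurable in neuronal IP: 14 hypodermal, seam and cuticle genes together made up 112 to 226 CPM at L1, 313 to 922 at L2, 1207 to 4925 at L4 and 1197 to 4304 CPM in adults, against 297 to 663, 661 to 1947, 2426 to 3943 and 2071 to 4945 CPM in the inputs. Intestinal genes made up 27660 to 70080 CPM of adult neuronal IP and 80270 to 180900 CPM of adult input, and germline genes 2824 to 7638 and 6335 to 12770 CPM.

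The level of cdh-12 was highest at L4 in both fractions. In neuronal IP it stood at 102, 123, 99.2 and 93.6 CPM in the 4 L1 libraries and at 179, 166.5, 153, 132 and 361 CPM in the 5 L2 libraries. At L4 the 6 libraries ran from 313 over a median of 535 to 653 CPM, and in adults the 7 libraries ran from 45.5 over a median of 56.0 to 93.8 CPM. The L4 libraries overlapped with those of L2 through a single L2 library, replicate 5 at 361 CPM, and lay above every L1 and adult library. Group means from L1 through L2 and L4 to the adult were 104.6 ± 13, 198 ± 92.7, 506 ± 123 and 64.5 ± 18.5 CPM (SD, n = 4, 5, 6 and 7).

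The inputs traced the same course from a lower start. They held 23.1, 22, 19.6 and 52.1 CPM of cdh-12 at L1, 104, 58.3 and 42.7 CPM at L2, 520, 430.2, 353 and 575 CPM at L4, and 24.6, 46.2, 49.2, 10.4 and 12.5 CPM in adults. Every L4 input library was above every input library of the other stages. At L4 the neuronal IP and input libraries of cdh-12 overlapped, with means of 506 ± 123 and 469 ± 98.0 CPM (SD, n = 6 and 4), whereas at L1 and L2 each neuronal IP library was above each input library. The plot of levels by stage shows this as red and grey points that meet at L4.

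**Figure D1:**
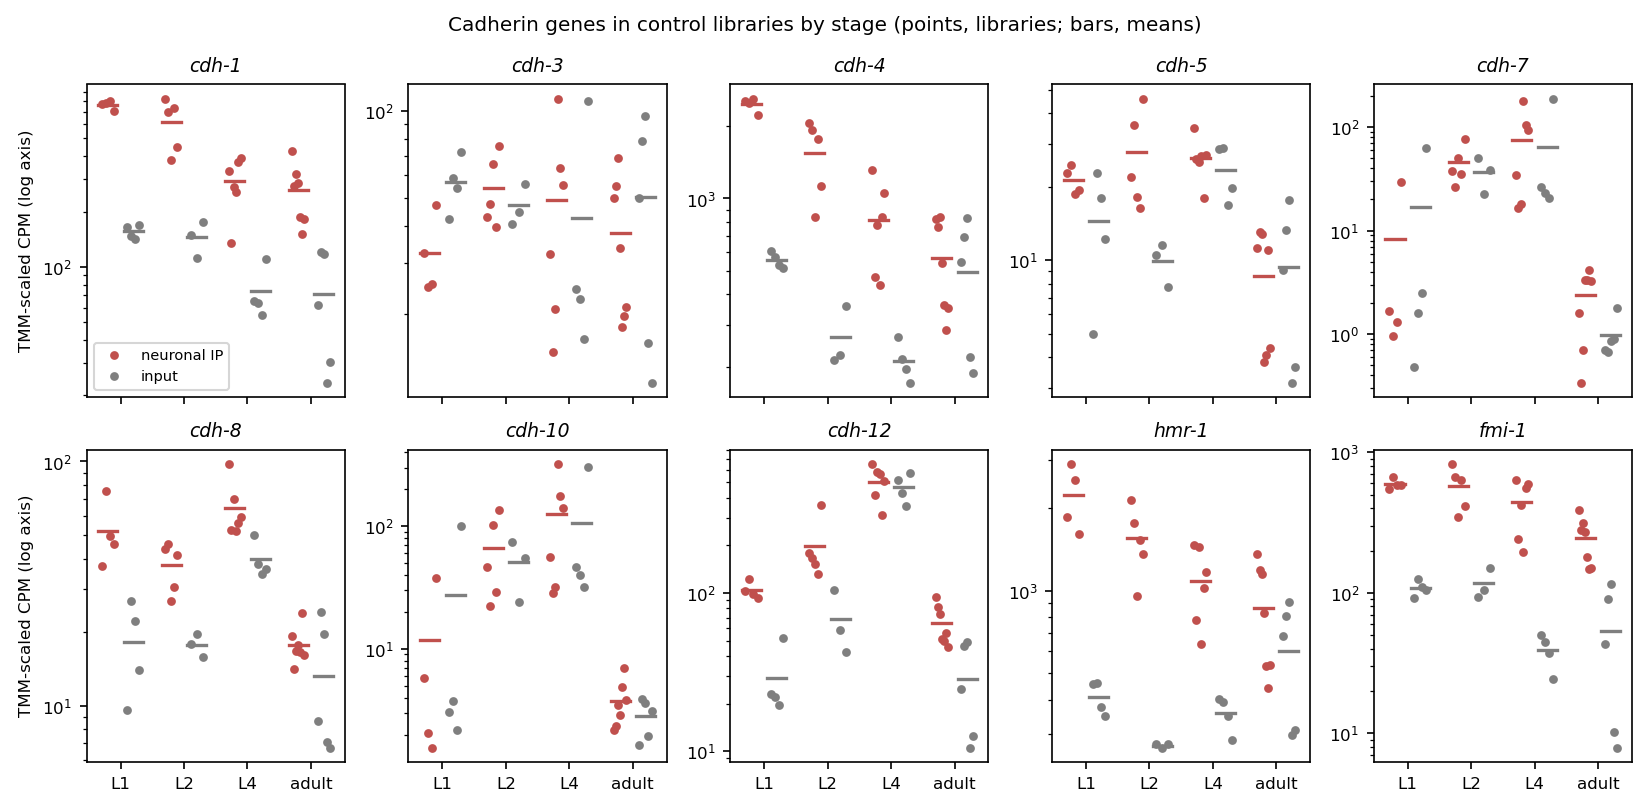
TMM-scaled CPM (log axis) of the 10 cadherin genes in each control library at L1, L2, L4 and adult, with neuronal IP in red to the left and input in grey to the right, points as libraries and bars as group means. The peak of cdh-12 at L4 appears in both fractions, while hmr-1, cdh-1, cdh-4 and fmi-1 stand higher in neuronal IP than in input at L1, L2 and L4.

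The gene cdh-8 varied less. Its neuronal IP libraries held 37.2, 75.7, 49.3 and 45.9 CPM at L1, 43.7, 46.1, 27, 30.5 and 41.3 CPM at L2, 51.8 to 97.6 CPM at L4 with a median of 57.5, and 14.1 to 23.9 CPM in adults with a median of 16.7. In CPM the adult libraries lay below all larval ones, and the L4 libraries lay above those of L2. On the size-adjusted values the adult libraries (161 to 449) overlapped those of L1 (341 to 519) and L2 (282 to 537). The L4 libraries (563 to 1199) stayed above those of L2 there. In input cdh-8 averaged 18.2 ± 7.83 CPM at L1, 17.8 ± 1.91 at L2, 39.7 ± 6.94 at L4 and 13.3 ± 8.13 CPM in adults (SD, n = 4, 3, 4 and 5), again highest at L4.

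Low levels were found for cdh-5, which stood at 16.4 to 45.8 CPM in larval neuronal IP and 3.81 to 13.1 CPM in adult neuronal IP, against 4.98 to 28.7 CPM in larval and 3.15 to 17.7 CPM in adult input. The adult and larval libraries of cdh-5 did not overlap in neuronal IP but overlapped in input.

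The large cadherins with known roles in axons or junctions formed a second pattern: hmr-1, cdh-4 and cdh-1 had their highest mean in L1 neuronal IP, and fmi-1 had like means at L1 and L2. In neuronal IP hmr-1 stood at 1857, 2907, 2544 and 1616 CPM at L1, 2156, 1775, 954.6, 1532 and 1366 CPM at L2, 639 to 1473 CPM at L4 and 442 to 1359 CPM in adults. The Fat-like cdh-4 stood at 2539, 2484, 2591 and 2213 CPM at L1, 2061, 1921, 838, 1760.0 and 1131 CPM at L2, 437 to 1308 CPM at L4 and 284 to 841 CPM in adults. In CPM each adult library of both genes was below each L1 library. On the size-adjusted values this held for cdh-4, while hmr-1 overlapped, at 8285 to 15374 in adults and 14238 to 19934 at L1. The Dachsous-like cdh-1 averaged 764 ± 40.1, 615 ± 191, 293 ± 94.3 and 261 ± 96.1 CPM, and the Flamingo gene fmi-1 averaged 596 ± 50.1, 579 ± 195, 440.3 ± 187 and 247 ± 91.1 CPM, in neuronal IP of L1, L2, L4 and adults (SD, n = 4, 5, 6 and 7). On the size-adjusted values fmi-1 was lower at L1 (4826 ± 313) than at L2 (5489 ± 262) and averaged 5530 ± 1380 at L4 (SD, n = 4, 5 and 6), so its order over the larval stages depends on the scale.

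Adult neuronal IP libraries fell into 2 sets, without overlap, for cdh-4, hmr-1, fmi-1 and cdh-3, with replicates 1 to 3 above replicates 4 to 7, and for cdh-7 in the other direction. Adult neuronal IP replicates 1 to 3 held 819, 760 and 841 CPM of cdh-4 and replicates 4 to 7 held 542, 361, 284 and 352 CPM, and adult input replicates 1 to 3 held 545, 690 and 831 CPM against 220.1 and 189.6 CPM in replicates 4 and 5. For hmr-1 the first 3 adult neuronal IP libraries held 1149 to 1359 CPM and the other 4 held 442 to 831 CPM. The labels give no batch for these libraries. For cdh-7 the first 3 held 0.338 to 1.6 CPM and the other 4 held 3.27 to 4.18 CPM. Marker sums split between the same libraries: neuronal genes made up 7197 to 15010 CPM of the first 3 and 4227 to 6783 CPM of the other 4, and sperm genes 11.7 to 19.2 CPM of the first 3 and 67.8 to 124.6 CPM of the other 4. Pharyngeal genes made up 67.6 to 327 CPM of the first 3 and 431 to 1575 CPM of the other 4, and the part of these markers in the cadherin levels was not tested. In adult neuronal IP the first 3 libraries also held 73.7 to 93.8 CPM of cdh-12 and the other 4 held 45.5 to 56.0 CPM. On the size-adjusted values the sets overlapped for cdh-4 (6850 in replicate 1, 7358 in replicate 4) and fmi-1 (3244 and 3700). They overlapped there for cdh-12 too (785 in replicate 1, 1050 in replicate 6), and stayed just apart for hmr-1 (11362 in replicate 1, 11279 in replicate 4). The split thus depends on the scale.

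Per kilobase of exon the order of the genes in L1 neuronal IP was hmr-1 (241 ± 64.7 CPM per kb), cdh-4 (189 ± 13), cdh-1 (91.6 ± 4.81), fmi-1 (76.5 ± 6.43), cdh-12 (12 ± 1.49), cdh-8 (10.3 ± 3.29), cdh-5 (4.87 ± 0.623), cdh-3 (3.22 ± 1.04), cdh-10 (2.23 ± 3.30) and cdh-7 (2.04 ± 3.44; SD, n = 4). The neighbours hmr-1 and cdh-4, cdh-12 and cdh-8, and cdh-3, cdh-10 and cdh-7 differed by less than their spread. At L4 the level of cdh-12 per kilobase, 58.1 ± 14.1, was within the spread of cdh-4 (62.7 ± 25.9) and fmi-1 (56.5 ± 24.0; SD, n = 6), and in adults it was 7.40 ± 2.13 CPM per kb against 43.6 ± 18.5 for cdh-4 and 31.7 ± 11.7 for fmi-1 (SD, n = 7). At L4 cdh-12 thus stood among the cadherins of high level, and at the other stages below them.

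The remaining cadherins, cdh-7, cdh-10 and cdh-3, varied widely between libraries of the same group. At L1 the count of cdh-7 was 16, 14 and 23 in neuronal IP replicates 1 to 3 and 505 in replicate 4, and 12, 58 and 87 in input replicates 1 to 3 and 1044 in replicate 4. The count of cdh-10 was 55, 30 and 27 and then 653 in L1 neuronal IP, and 76, 136 and 76 and then 1671 in L1 input. Replicate 4 of L1 thus stood far above the other 3 in both genes and in both fractions.

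The same pair of genes marked other libraries. At L4, cdh-10 stood at 56.4, 28.6 and 31.9 CPM in neuronal IP replicates 1 to 3 and at 321.5, 176 and 142 CPM in replicates 4 to 6, and in input at 46.3, 40.4, 32.1 and, in replicate 4, 304 CPM. At L2, neuronal IP replicates 3 and 5 held 102 and 134.5 CPM and the other 3 held 22.4 to 46.4 CPM. In adults cdh-10 stayed at 2.16 to 6.97 CPM in neuronal IP and 1.65 to 3.89 CPM in input, and cdh-7 at 0.338 to 4.18 and 0.667 to 1.77 CPM. Across the 22 of 38 libraries with at least 100 counts of each gene, cdh-10 had 0.828 to 2.02 times the count of cdh-7 (median 1.61).

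These libraries also carried more of dpy-7, a cuticle collagen gene of the hypodermis. In L1 neuronal IP dpy-7 stood at 0.317, 2.75, 1.83 and, in replicate 4, 22.8 CPM, and in L1 input at 1.42, 14.5, 9.19 and, in replicate 4, 50.6 CPM. In L4 neuronal IP it stood at 30.6 to 34.4 CPM in replicates 1 to 3 and 96.9 to 120.1 CPM in replicates 4 to 6, and in L4 input at 22.6 to 29.4 CPM in replicates 1 to 3 and 180 CPM in replicate 4. The sum of the 14 hypodermal, seam and cuticle genes did not follow this split, at 3981, 4215 and 4925 CPM in L4 neuronal IP replicates 1 to 3 and 1978, 1207 and 2218 CPM in replicates 4 to 6. The part of hypodermal RNA or of the time of collection within a stage in the levels of cdh-7 and cdh-10 was not tested. The Fat-like cdh-3, which is known from anchor cell and hypodermal cells, stood at 110.2, 63.4 and 55.6 CPM in L4 neuronal IP replicates 4 to 6 and at 32.2, 14.8 and 20.8 CPM in replicates 1 to 3.

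**Figure D2:**
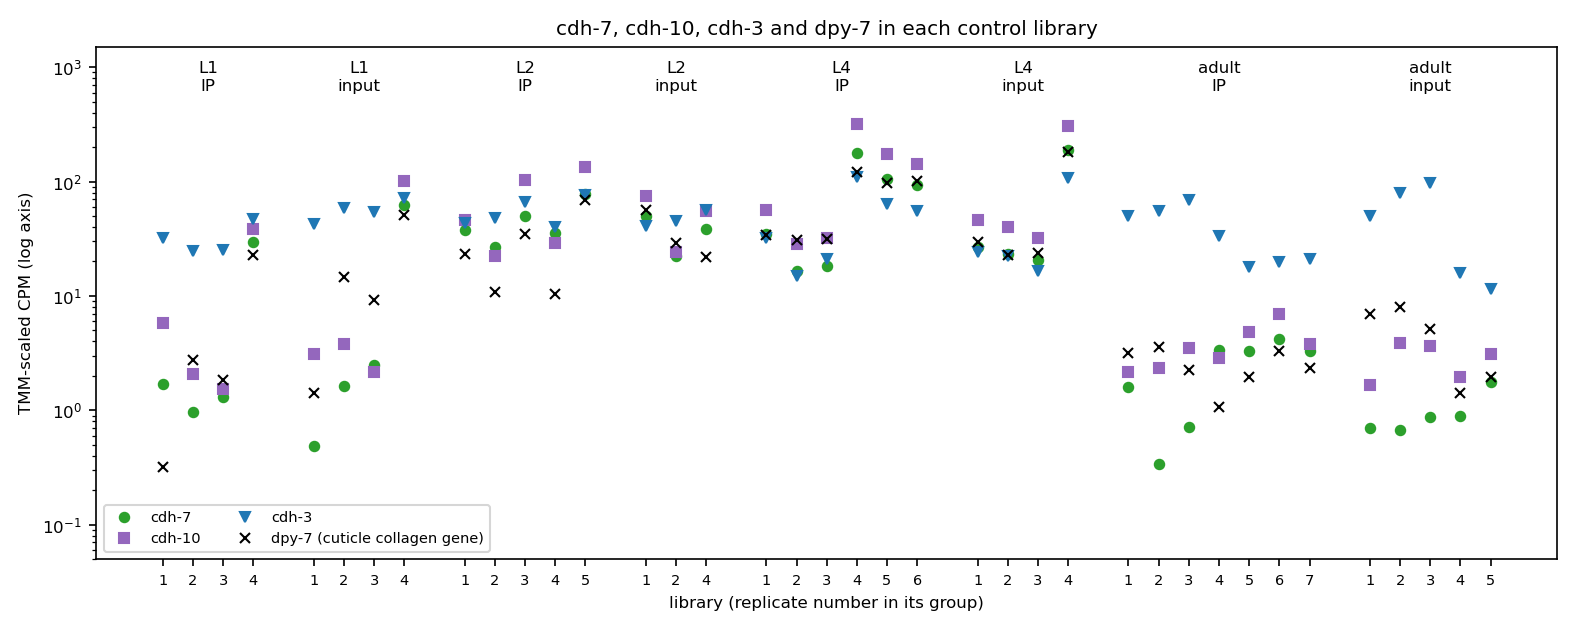
TMM-scaled CPM (log axis) of cdh-7, cdh-10, cdh-3 and the cuticle collagen gene dpy-7 in each control library, with the replicate number on the x axis and neuronal IP to the left of input at each stage. L1 replicate 4 and, at L4, neuronal IP replicates 4 to 6 and input replicate 4 stand above the other libraries of their groups for cdh-7, cdh-10 and dpy-7.

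Neuronal IP was compared with input at each stage to ask which cadherins are enriched in neurons. In all, 4 members were higher in neurons at L1, L2 and L4: hmr-1, cdh-1, cdh-4 and fmi-1. The gene cdh-12 was higher in neurons at L1, L2 and in adults and did not pass the test at L4. No member was called lower in neuronal IP in the edgeR fit over all 8 control groups. The median log2 fold change of the 10 members was, in the order of the stages, 1.68, 1.5, 0.48 and 0.47, beside 0.39, 0.46, 0.17 and 0.06 over all genes tested. The L4 and adult neuronal IP libraries are those by which cdh-12 and cdh-8 were chosen, so tests of these 2 genes that use them are not independent of the choice. The labels do not say whether replicates were separate cultures, so p-values speak only of the scatter among these libraries, part of which may be technical.

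At L1, 6 of 10 cadherins were called higher in neuronal IP at an adjusted p under 0.05 (edgeR quasi-likelihood test, Benjamini-Hochberg), against 51.7% of the 21040 genes tested that were called in either direction and 34% called higher. Their log2 fold changes were 2.47 for fmi-1 (SE 0.52), 2.45 for hmr-1 (SE 0.36), 2.29 for cdh-1 (SE 0.40), 2.15 for cdh-4 (SE 0.41), 1.84 for cdh-12 (SE 0.40, adjusted p = 0.000323) and 1.51 for cdh-8 (SE 0.33). With the replicate number as a block, which at L1 paired IP and input libraries that varied together, cdh-3 (log2 fold change -1.19, adjusted p = 4.09e-05), cdh-7 (-0.92, 0.0377) and cdh-10 (-0.92, 0.023) were also called, lower in neuronal IP by edgeR. Without input replicate 4 the value of cdh-7 turned to 2.44 (adjusted p = 0.0442), and without neuronal IP replicate 4 it was -4.20 (adjusted p = 0.00624), so a single library sets its direction.

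At L2, 7 of 10 were called higher, against 42.3% of all genes called in either direction and 31.1% called higher: the same 6 and cdh-5. The log2 fold change of cdh-12 was 1.53 (SE 0.42, adjusted p = 0.0042 by edgeR), that of cdh-8 was 1.08 (SE 0.35) and that of cdh-5 was 1.47 (SE 0.50). Leaving out each of the 8 libraries in turn ended the call of cdh-12 in 3 cases, lowest at 0.70 without input replicate 4, and those of cdh-8 and cdh-5 in 6 cases each.

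At L4, 4 of 10 were called higher, against 41.8% of all genes called in either direction and 28.9% called higher: fmi-1 at 3.5 (SE 0.53), cdh-1 at 2.00 (SE 0.37), cdh-4 at 1.94 (SE 0.38) and hmr-1 at 1.61 (SE 0.33). The log2 fold change of cdh-12 was 0.11 (SE 0.35, adjusted p = 0.838 by edgeR). That of cdh-8 was 0.70 (SE 0.30, adjusted p = 0.0609), and 0.73 (adjusted p = 0.00696) in the fit that pairs IP and input by replicate.

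In adults, 3 of 10 were called higher, against 37.8% of all genes called in either direction and 25.9% called higher: fmi-1 at 2.21 (SE 0.44), cdh-1 at 1.89 (SE 0.33) and cdh-12 at 1.17 (SE 0.33, adjusted p = 0.00485 by edgeR). With IP and input paired by replicate, 5 were called, with hmr-1 at 0.94 (adjusted p = 0.000192) and cdh-4 at 0.70 (adjusted p = 0.00302) added. The call of cdh-12 was lost without neuronal IP replicate 5 (0.73, adjusted p = 0.0907), 6 (0.69, 0.107) or 7 (0.74, 0.0889), without input replicate 5 (0.48, 0.264), and with neuronal IP libraries 4 to 7 alone (0.42, adjusted p = 0.419), whereas with libraries 1 to 3 alone it stood at 1.00 (adjusted p = 0.0461).

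These folds are relative to the scaling of all genes. When libraries were scaled on the 8632 genes that are higher in neuronal IP over all stages, the folds of the members moved by medians of -1.73, -1.76, -1.68 and -1.75 from the youngest stage to the oldest, and cdh-12 then stood at 0.08, -0.11, -1.49 and -0.58. Relative to the average of these genes, the value of cdh-12 was lowest at L4. The L4 neuronal IP libraries are those by which cdh-12 was chosen. No p-value is read here, because the 0 of this scale is set by the genes picked. These genes were picked for higher IP than input in the same libraries, so folds drop on this scale by construction. The negative value is thus no sign of less cdh-12 in L4 neuronal IP than in L4 input. Under this scaling cdh-8 stood below 0 at all 4 stages, and cdh-5 did so too. There hmr-1 was at -0.07 at L4 and -1.33 in adults, and cdh-4 at -1.63 in adults. The folds of cdh-1 and fmi-1 stayed above 0 at all 4 stages.

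**Figure D3:**
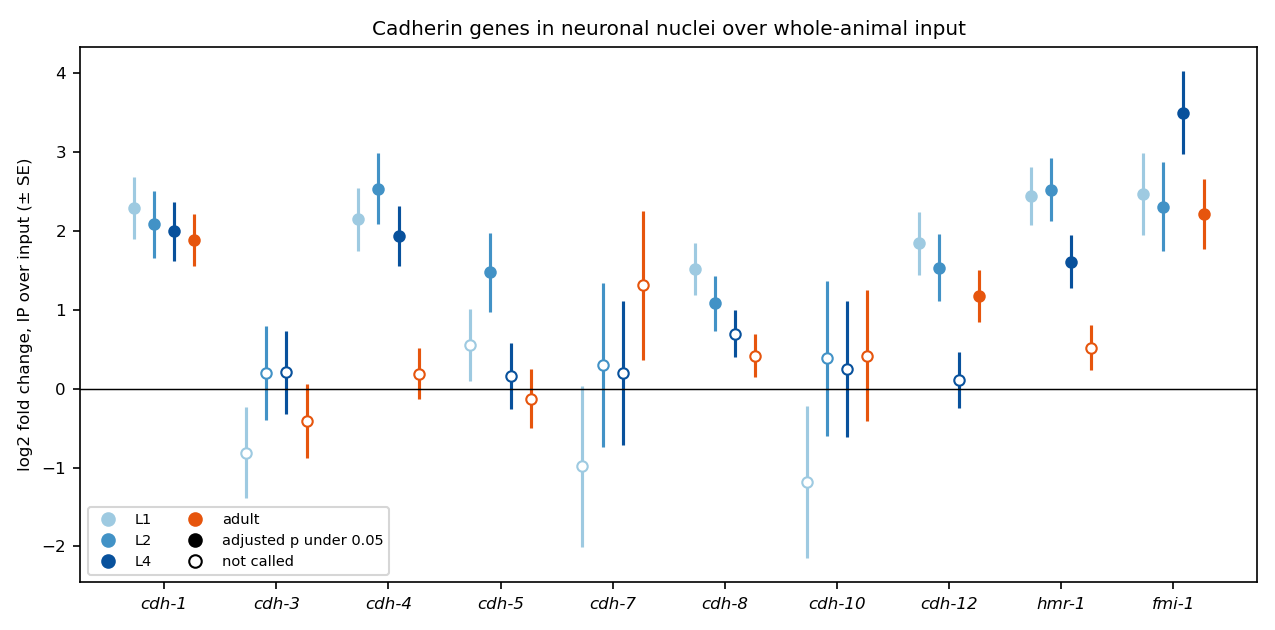
Log2 fold change of neuronal IP over input (± SE of the edgeR fit) for each cadherin gene at L1, L2, L4 and adult, with filled points for an adjusted p under 0.05. fmi-1 and cdh-1 are filled at all 4 stages, and cdh-12 lies at 0.11 at L4 between called values at L2 and in adults.

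The ratio of IP to input of cdh-12 was also set against itself at L4 and L1. The difference between the log2 ratios of IP to input at L4 and at L1 was -1.73 (SE 0.52, adjusted p = 0.0351, edgeR interaction), and it was the one cadherin called in a comparison that called 8.74% of all genes. This comparison was added after the levels were seen and uses the L4 neuronal IP values by which cdh-12 was chosen. Leaving out single libraries ended the call in 15 of 18 cases with values of -2.17 to -1.41. A block on replicate number gave -1.48 (adjusted p = 0.00792, edgeR). That block also joins L1 and L4 libraries of the same number, which are not known to be paired, so it lends the call no firm backing. It was also not called with L4 neuronal IP libraries 1 to 3 alone (-1.21, adjusted p = 0.212), with libraries 4 to 6 alone (-1.69, adjusted p = 0.0731) or with no filter on low counts (-1.53, adjusted p = 0.108). Glial genes made up 107 to 175 CPM of L4 neuronal IP, with daf-6 at 12.6 to 28.3 CPM there and at 19.9 to 29.4 CPM in L4 input, and their part in the level of cdh-12 was not tested.

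No member passed the test between L2 and L1 neuronal IP, against 3.12% of all genes called by edgeR, a share at which a list of 10 genes would show few calls or none, and 3 had an unadjusted p under 0.05, namely cdh-12 (0.92, SE 0.37), cdh-7 (2.43, SE 1.03) and cdh-10 (2.49, SE 0.97). Without L1 neuronal IP replicate 4, cdh-7 (5.27, adjusted p = 0.0209) and cdh-10 (4.63, adjusted p = 0.0301) were called higher at L2. DESeq2 called none.

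From L2 to L4, 4 of 10 were called in neuronal IP, against 25.5% of all genes. The level of cdh-12 rose by a log2 fold change of 1.35 (SE 0.34, adjusted p = 0.00253 by edgeR) and that of cdh-8 by 0.77 (SE 0.28, adjusted p = 0.0383), while cdh-1 fell by 1.07 (SE 0.32) and cdh-4 fell by 0.92 (SE 0.33). The L4 libraries are those in which cdh-12 and cdh-8 were first noticed, so for these 2 genes the rise is not independent of their choice. With L4 libraries 4 to 6 alone none was called, cdh-12 then at 1.21 (adjusted p = 0.0589), and with libraries 1 to 3 alone cdh-12 stood at 1.70 (adjusted p = 0.00176). Leaving out single libraries kept the call of cdh-12 in 11 of 11 cases and that of cdh-8 in 6. Markers of other tissues moved between the same libraries. At L4 neuronal IP 10 of 10 germline genes (median log2 fold change 3.52), 7 of 8 sperm genes (5.6), 6 of 14 hypodermal, seam and cuticle genes (1.32) and 4 of 8 intestinal genes (0.93) were higher. Lower were 6 of 6 pharyngeal genes (-3.23), 4 of 13 neuronal genes (-0.56), 2 of 14 hypodermal, seam and cuticle genes and 2 of 6 vulval genes, and the glial and muscle lists had 1 lower each, the glial list with 1 higher too. Their part in the rise of cdh-12 was not tested.

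Over the whole course, 6 of 10 were lower in adult than in L1 neuronal IP, against 53.3% of all genes called in either direction and 29.6% called lower. They were cdh-4 (log2 fold change -2.12, SE 0.34), cdh-1 (-1.55, SE 0.33), cdh-8 (-1.55, SE 0.28), hmr-1 (-1.37, SE 0.30), cdh-5 (-1.31, SE 0.39) and fmi-1 (-1.27, SE 0.43). The value of cdh-12 was -0.70 (SE 0.34, adjusted p = 0.0774 by edgeR) and passed under median-ratio scaling (-0.92, adjusted p = 0.0265) but not with libraries scaled on neuron-enriched genes (0.25, adjusted p = 0.581). Under that last scaling, which raised the members' values by a median of 0.91, 2 members stayed called, and with adult libraries 1 to 3 alone 3 did. On the scaled size-adjusted values used below for the mutants, cdh-12 was instead higher in control adults (mean 998) than at L1 (704.5). On those values the adult libraries of cdh-4 stayed below all L1 libraries, and those of cdh-1, cdh-8, hmr-1 and fmi-1 overlapped them. The direction for cdh-12 thus depends on the scale. The adult libraries are one side of the contrast by which cdh-8 and cdh-12 were chosen, so for these 2 genes the values are not independent of their choice. The neuronal markers were lower too, 10 of 13 of them, with a median of -0.95, as were 6 of 6 pharyngeal genes (-2.27), while 10 of 10 germline genes were higher (7.18).

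From L4 to the adult, in the contrast that led to the choice of genes, neuronal IP values were lower for all 10 members. The largest differences on the log2 scale were -5.05 for cdh-10 and -4.94 for cdh-7, followed by -2.97 for cdh-12, -1.86 for cdh-8 and -1.60 for cdh-5. The other values were -0.83 for fmi-1, -0.53 for cdh-4, -0.38 for cdh-3, -0.34 for hmr-1 and -0.17 for cdh-1. Outside the members, cdh-9 stood at -1.07 and casy-1 at 0.13. No test is given for these values, and the share of all genes that were lower is not given either. The count of 10 is therefore no result about the family.

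The inputs are libraries that the earlier choice did not use, though at L1, L4 and in adults they varied together with the neuronal IP libraries of the same number. No member was called between L2 and L1 input (edgeR), against 1.34% of all genes, none by DESeq2, and 2 had an unadjusted p under 0.05, namely cdh-12 (1.23, SE 0.41, adjusted p = 0.129) and cdh-4 (-1.06, SE 0.43). Without L1 input and L1 neuronal IP replicate 4, cdh-7 (4.77, adjusted p = 0.00879), cdh-10 (4.29, adjusted p = 0.0134) and cdh-12 (1.88, adjusted p = 0.039) were called higher at L2. From L2 to L4 input, 5 were called, against 44.6% of all genes: cdh-12 rose by 2.78 (SE 0.46, adjusted p = 1.7e-05), cdh-5 by 1.24 (SE 0.51) and cdh-8 by 1.16 (SE 0.36), and fmi-1 fell by 1.58 (SE 0.53) and cdh-1 fell by 0.98 (SE 0.41). With single libraries left out the call of cdh-12 held in 7 of 7 cases, that of cdh-5 in 1 and that of cdh-8 in 3.

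Adult input differed from L4 input for 6 members, against 39.5% of all genes called. The level of cdh-12 fell by 4.04 (SE 0.40, adjusted p = 1.91e-09 by edgeR), cdh-7 fell by 6.05 (SE 1.15), cdh-10 fell by 5.22 (SE 1.03), cdh-8 fell by 1.58 (SE 0.31) and cdh-5 fell by 1.32 (SE 0.43), while cdh-4 rose by 1.22 (SE 0.38). The call of cdh-12 held in 9 of 9 cases with a single library left out, at -4.32 to -3.73. Of the marker lists, 9 of 14 hypodermal, seam and cuticle genes, 5 of 7 muscle genes, 4 of 6 vulval genes, 3 of 8 sperm genes, 3 of 13 neuronal genes, 2 of 8 glial genes and 2 of 8 intestinal genes were lower. Higher were 6 of 10 germline genes, 2 vulval genes, 2 intestinal genes and 1 hypodermal gene, and the part of these tissues in the cadherin values was not tested.

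Heterochronic mutants were compared with controls of the same stage on the size-adjusted values, divided by a median-ratio factor for each library. These values are the authors' rescaled counts and not counts themselves, so the fits used limma on log2 of the value plus 1. For cdh-12 the lin-4 null adults held 3253, 5757, 12350 and 8793, and the lin-14 gain-of-function adults held 4804, 2355, 1945, 5951 and 4776. The lin-28 gain-of-function adults held 1544, 988 and 759, and control adults ran from 771 over a median of 989 to 1170.0. Every lin-4 and lin-14 mutant library was above every control library, and the lin-28 libraries lay around the control values.

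In adults lacking lin-4, cdh-12 was higher than in control adults by a log2 fold change of 2.76 (SE 0.28, adjusted p = 7.91e-08, limma). Its scaled mean was 7538 ± 3930 in mutants and 998 ± 132 in controls (SD, n = 4 and 7). In this comparison 4 of the 6 members tested were called, each of them higher, against 7.44% of the 6399 genes tested called in either direction and 3.94% called higher. The others were cdh-8 at 1.05 (SE 0.25, adjusted p = 0.00829), cdh-4 at 0.60 (SE 0.18, adjusted p = 0.0359) and cdh-1 at 0.57 (SE 0.15, adjusted p = 0.0167).

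The values of cdh-8 were 414, 402, 1055 and 643 in lin-4 null adults against 195 to 479 in controls, so the groups overlapped. Its call was lost without mutant replicate 3 (0.76, adjusted p = 0.0605) and against control libraries 4 to 7 alone (0.75, adjusted p = 0.0875). The calls of cdh-4 and cdh-1 were lost against control libraries 1 to 3 alone, at 0.28 (adjusted p = 0.42) and 0.44 (adjusted p = 0.136), and that of cdh-4 in 9 of 11 cases with 1 library left out. Without each library in turn cdh-12 ranged from 2.46 to 3.11 and stayed called in 11 of 11 cases. hmr-1 (0.11, SE 0.19) and fmi-1 (0.36, SE 0.15) did not pass.

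In lin-14 gain-of-function adults cdh-12 was higher than in control adults by 1.87 (SE 0.26, adjusted p = 2.25e-05, limma), with scaled means of 3966 ± 1730 in mutants and 998 ± 132 in controls (SD, n = 5 and 7). It was the one member of 6 called, against 18.4% of all genes called in either direction. The control adults are those by which cdh-12 and cdh-8 were chosen, so for both genes the values are not independent of the choice. The value of cdh-8 was 0.60 (SE 0.23, adjusted p = 0.069), and it was called without control replicate 6 (0.72, adjusted p = 0.0263) and against control libraries 1 to 3 alone (0.99, adjusted p = 0.0185). On size-adjusted values with no further factor, which raised every member by 0.35, 5 members were called higher, and cdh-1 then stood at 0.34 in place of -0.01.

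In lin-28 gain-of-function adults no member was called (limma), against 0.0156% of all genes called, and none had an unadjusted p under 0.05. That share depends on the control libraries. Against control libraries 1 to 3 alone, 396 of 6367 genes were called higher and 206 lower, and against libraries 4 to 7 alone 1 of 6378 was called. No member was called in either case. cdh-12 averaged 1097 ± 404 in mutants and 998 ± 132 in controls (SD, n = 3 and 7), a log2 fold change of 0.08 (SE 0.30, adjusted p = 0.937). In L1 larvae lacking lin-4 no member was called either, and none had an unadjusted p under 0.05, against 0.0625% of all genes called. There cdh-12 held 769, 762 and 848 in mutants against 788, 712, 670.4 and 648 in controls, a log2 fold change of 0.17 (SE 0.34, adjusted p = 0.999), and the groups overlapped.

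**Figure D4:**
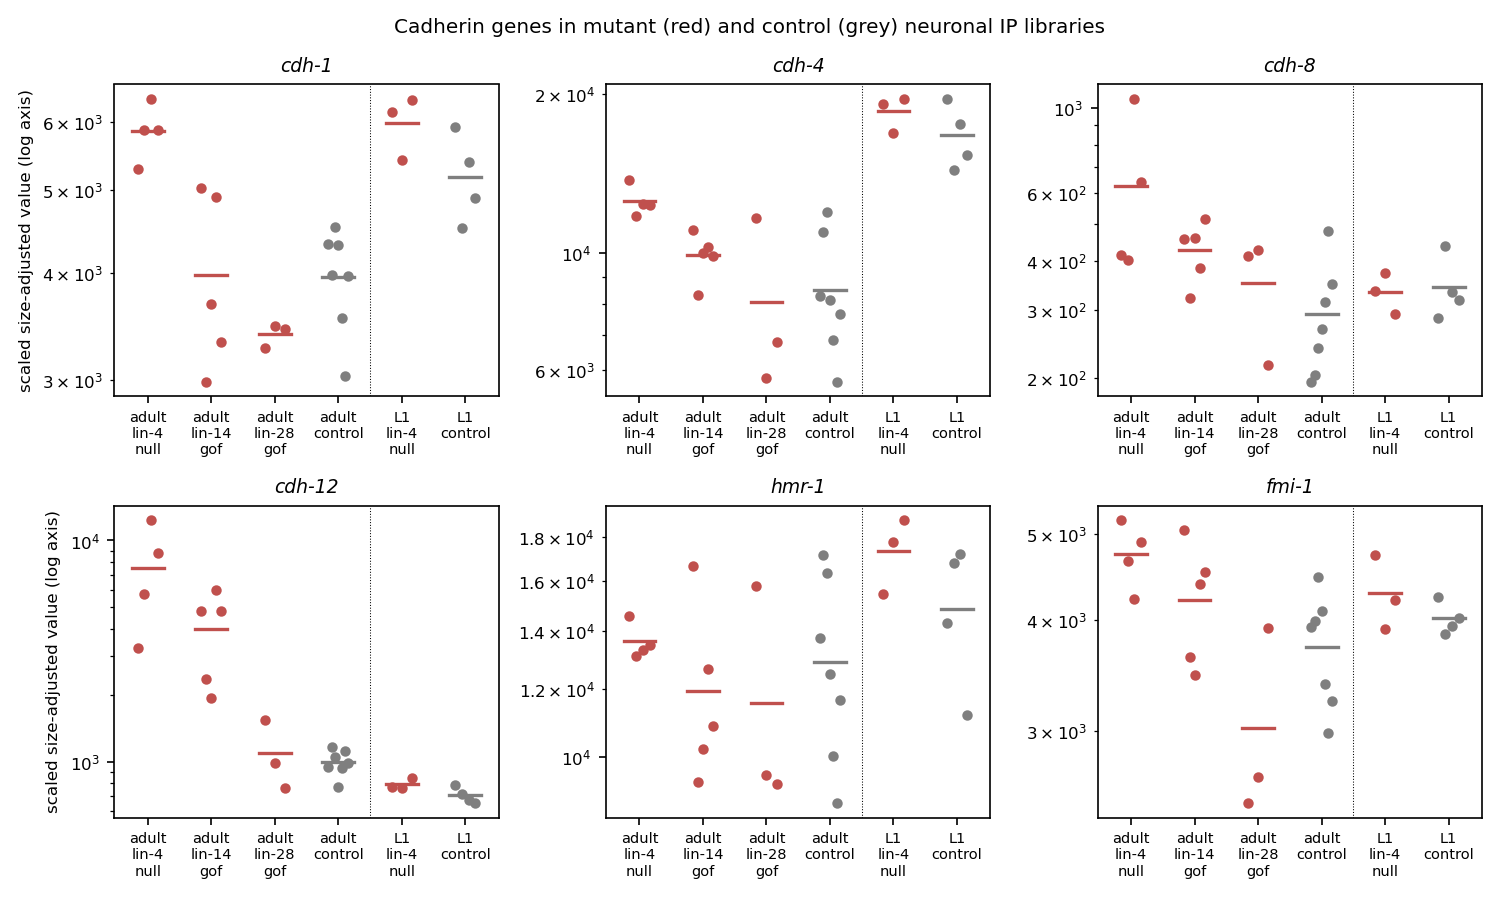
Scaled size-adjusted values (log axis) of the 6 cadherin genes of the neuronal table in mutant (red) and control (grey) neuronal IP libraries of adults and, right of the dotted line, of L1 larvae, with bars at group means. For cdh-12 the adult lin-4 null and lin-14 gain-of-function libraries, from 1945 to 12350, lie above the control adults, and the L1 libraries of both genotypes lie between 648 and 848.

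Within lin-4 null animals cdh-12 was higher in adults than in L1 larvae by 3.08 (SE 0.34, adjusted p = 1.34e-07, limma), the one member called, against 23.6% of all genes called in either direction. On the same scaled values control neurons averaged 998 ± 132 in adults and 704.5 ± 61.4 at L1 (SD, n = 7 and 4), an order opposite to that of the CPM values. The effect of lin-4 loss on cdh-12 differed between the stages: the log2 difference of the effects in adults and in L1 larvae was 2.59 (SE 0.43, adjusted p = 0.000936, limma interaction), in a comparison that called 0.844% of all genes and that was added after the data were seen. For cdh-8 the same difference was 1.08 (SE 0.39, adjusted p = 0.199), and 1.38 (adjusted p = 0.0364) with the replicate block. That block also joins adult and L1 libraries of the same number, which are not known to be paired. The difference between stages also uses the adult control libraries by which cdh-12 and cdh-8 were chosen.

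Set beside the stages, before the extra factor, the size-adjusted values of cdh-12 were 3745, 6200, 11430 and 8817 in lin-4 null adults and 2332 to 5706 in lin-14 gain-of-function adults. Control neurons held 771 to 941 at L1, 1211 to 4702 at L2, 3147 to 11224 at L4 and 697 to 1050 in adults. The lin-4 null and lin-14 gain-of-function adults thus overlapped the range of control L4 libraries and lay outside that of control adults. They overlapped L2 only through replicate 5 at 4702, while the other L2 libraries, at 1211 to 2267, lay below every one of these mutant libraries. The control adults used here also formed one side of the contrast by which cdh-12 and cdh-8 were first noticed. Among the genes tested in the mutants were 0 of the 14 hypodermal, seam and cuticle markers, so their level in mutant libraries could not be set beside these results. Of the markers tested, 13 neuronal genes had a median of -0.19 in adult lin-4 nulls and -0.25 in the lin-14 gain of function, with 1 lower in each. Only 2 of the 8 glial genes were tested, with medians of 0.02 and -0.03 and neither called. The authors had kept these 2 as neuronal, so glial RNA in the mutants could not be judged from them.

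Among the other listed genes of the cadherin system that were tested in the mutants, none was called higher in lin-4 null or lin-14 gain-of-function adults. The calsyntenin gene casy-1, a cadherin superfamily member known for its role in learning, had log2 fold changes of 0.05 (SE 0.20) in adult lin-4 nulls and -0.04 (SE 0.18) in the lin-14 gain of function, and cdh-9 had 0.63 (SE 0.24) and 0.47 (SE 0.22), none called by limma. Of the catenins 2 of 6 were in the neuronal table, and jac-1, the p120-type catenin that binds HMR-1, was lower in the lin-14 gain of function (-0.62, SE 0.14). Of 4 junction genes tested, magi-1, a scaffold protein gene, was lower in adult lin-4 nulls (-0.62, SE 0.18) and in the lin-14 gain of function (-0.96, SE 0.17), where zoo-1, a relative of ZO-1, was lower too (-0.42, SE 0.15). Of 6 planar polarity genes dsh-1, a Dishevelled gene, was lower in the lin-14 gain of function (-0.50, SE 0.14) and none was called in lin-4 nulls. Of all genes tested, 7.44% were called in adult lin-4 nulls and 3.5% were called lower. In the lin-14 gain of function these shares were 18.4% and 9.97%. With lists this short, the calls are no result about the partner genes as a set.

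In neuronal IP against input the partner genes differed in direction, on the scaling of all genes; they were not recomputed with libraries scaled on neuron-enriched genes. Of the 6 catenins, L1 and L2 each had 3 higher and 1 lower, followed by 1 higher and 2 lower at L4 and 2 higher and 3 lower in adults, beside 51.7%, 42.3%, 41.8% and 37.8% of all genes called at these stages. jac-1 was higher at each of the 4 stages, at 1.70, 2.04, 1.55 and 1.53 from L1 to adult, and sys-1, a beta-catenin of Wnt-dependent asymmetric divisions, was lower at each, at -1.02, -0.87, -1.50 and -1.10. Of 9 junction genes, 3, 4, 4 and 4 were higher and 2, 1, 1 and 2 lower from L1 to adult. sax-7, the worm L1-type adhesion gene of neurons, stood at 1.49, 1.74, 1.63 and 0.76, and the ezrin-type gene erm-1 at -1.23, -1.18 and -1.03 at L1, L2 and L4. Of 8 planar polarity genes, 2, 5, 6 and 2 were higher and 1, 0, 2 and 1 lower, with the Frizzled gene cfz-2 at 1.41, 2.08, 2.74 and 1.07 and the Van Gogh gene vang-1 at 2.44 at L4. casy-1 was higher at every stage, at 2.67, 2.76, 3.46 and 3.72, and cdh-9 at L2 (1.16, SE 0.34).

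Between stages the partners changed in both directions. From L2 to L4 neuronal IP, casy-1 (-0.96), the beta-catenin bar-1 (-0.86), the junction gene dlg-1 (-0.81), dsh-1 (-0.64) and the Frizzled lin-17 (-0.61) were lower and dsh-2 was higher (0.94, edgeR), beside 25.5% of all genes called. In adult against L1 neuronal IP, 3 catenins were higher and 1 lower, 2 junction genes higher and 3 lower, and 2 planar polarity genes higher and 4 lower, beside 53.3% of all genes called, with the largest value for dsh-2 at 3.10 (SE 0.29). The called shares of these lists are near that of all genes. No catenin, junction or planar polarity gene was called between L2 and L1 in either fraction. From L2 to L4 input wrm-1 rose by 1.57 and vang-1 fell by 2.12, and from L4 to adult input vang-1 rose by 3.09 and cdh-9 fell by 1.06.

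The genes whose course over the 22 control neuronal IP libraries was most like that of cdh-12 were sought among 21039 genes by the root mean square difference of centred log2 CPM, as a description. They were daf-6 (0.362), mboa-1 (0.464), cutl-28 (0.481), hpo-36 (0.495) and cut-6 (0.510). daf-6 is known from glia that line sensory channels, and cut-6 and cutl-28 encode cuticlin-type proteins. None of the 5 was among the neuron-enriched genes. The 8 glial genes, daf-6 among them, had a summed median of 186, 190, 143 and 109 CPM in neuronal IP from L1 to adult. That sum had no peak at L4, so daf-6 does not stand for the list. Their levels were far lower than that of cdh-12: daf-6 averaged 3.14, 5.75, 19.9 and 2.20 CPM in neuronal IP from L1 to adult. Among the cadherins, cdh-8 came at rank 88 (0.769) and cdh-5 at rank 98 (0.777), and cdh-10 and cdh-7 at ranks 13703 and 17814.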

How the data were processed

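Per the labels' protocols, nuclei of synchronised animals were isolated on density steps and neuronal nuclei pulled down, and RNA of neuronal IP and input was sequenced in 53 libraries. Counts per gene were deposited by the authors for the 38 control libraries; the submitters' processing notes name Subread, featureCounts and DESeq2, with versions, genome build and strand setting not given in the sources used here. The counted gene lengths, a deposited column, are multiples of 3 for 82.4% of genes. The deposited size-adjusted values are a score: counts of 7974 genes rescaled by the authors to nearly equal totals and rounded. A deposited DESeq2-normalized signal of the mutants was used as an alternative, because its factors did not follow the libraries.

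Control counts were fitted with edgeR 4.0.16 (TMM, filterByExpr with a minimum count of 10, quasi-likelihood, 8 groups in 1 fit, 21040 genes). Size-adjusted values, divided by a median-ratio factor per library, were fitted with limma 3.58.1 (trend, robust) as log2 of the value plus 1, for 6399 genes at 10 or more in at least 3 of 26 libraries. Fold changes of low genes are understated on this scale. A gene was called at a Benjamini-Hochberg adjusted p under 0.05 over all genes tested, in R 4.3.3. DESeq2 1.42.0 was an alternative. The scripts were tested on simulated data. Groups follow the sample titles.

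IP and input libraries of the same number varied together at L1, L4 and in adults. The r of deviations from group means across genes was 0.158 to 0.292 at L1 (4 pairs) and 0.233 to 0.482 at L4 (4 pairs). In adults it was 0.355 to 0.689 (5 pairs), and between L1 lin-4 and L1 control libraries 0.199 to 0.422 (3 pairs). Libraries of different numbers were not compared, so r cannot show that the numbers pair the samples, and the labels do not state it. Fits with the replicate block assume such a pairing.

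The members and lists were chosen with earlier results of these data known. All 10 cadherins are described; from each partner list at most 4 called genes with the largest change are named, and the 5 genes most like cdh-12. The comparisons of IP over input between L4 and L1 and of the lin-4 effect between adults and L1 were added after the data were seen, as was leaving out both L1 replicates 4. No sequence is shown.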

Additional observations from a re-analysis of the deposited data

Results flagged for a closer look

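Dixon's criterion is met by chance in about 1 in 20 groups if values are normal and groups independent. The levels here were not log-transformed and share libraries, so that rate is only a rough guide. In groups of 4 to 10 libraries, 10 of 82 cadherin levels had a single library far from the rest by this criterion. L1 replicate 4 accounted for 5 of them: cdh-7 at 29.46 CPM in neuronal IP (the others 0.961 to 1.69) and 62.6 CPM in input (0.486 to 2.49), cdh-10 at 38.09 CPM in neuronal IP (1.55 to 5.80) and 100.2 CPM in input (2.18 to 3.78), and cdh-12 at 52.11 CPM in input (19.6 to 23.1). L4 input replicate 4 accounted for 3, with cdh-7 at 187.3 CPM (20.6 to 26.5), cdh-10 at 303.9 CPM (32.1 to 46.3) and cdh-3 at 108.3 CPM (16.4 to 24.3). L2 neuronal IP replicate 5 held 361.1 CPM of cdh-12 (132 to 179), and adult input replicate 5 held 1.774 CPM of cdh-7 (0.667 to 0.891).

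Effects on cdh-12 differed between stages in 2 tests of the difference itself. The log2 ratio of neuronal IP to input at L4 minus that at L1 was -1.734 (adjusted p = 0.0351, edgeR), a call lost in 15 of 18 cases with a single library left out. It was added after the levels were seen and uses the L4 neuronal IP values by which cdh-12 was chosen. The effect of the lin-4 null allele was larger in adults than in L1 larvae by 2.587 (adjusted p = 0.000936, limma), a call kept in 18 of 18 such cases, in a comparison that was also added later and uses the adult control libraries of the choice.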

How the results depend on the processing

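Of 347 alternative values of called changes that leave out no single library, 289 kept call and direction, 52 lost the call and 6 turned; where a value moved, the cause was not tested unless the alternative's construction shows it. With libraries scaled on neuron-enriched genes alone (only 7 members are among them), the count of members called became 2 at L1, 2 at L2 (IP against input), 1 from L1 to L2 in neuronal IP, 2 from L2 to L4, 2 in adults against L1 and 1 from L1 to L2 input. Folds of IP over input drop on this scale by construction, since its genes were picked for higher IP than input. IP against input then turned to -1.174 (cdh-5) and -0.242 (cdh-8) at L1, to -0.177 (cdh-5), -0.629 (cdh-8) and -0.114 (cdh-12) at L2, to -1.445 (cdh-5), -0.939 (cdh-8), -1.489 (cdh-12) and -0.068 (hmr-1) at L4, and to -1.629 (cdh-4), -1.237 (cdh-8), -0.576 (cdh-12) and -1.326 (hmr-1) in adults. With no filter on low counts, 4 were called at L2 and 0 for the ratio at L4 against L1. With only the groups compared in the fit, 1 was called from L1 to L2 in neuronal IP, 1 in input, 3 in lin-4 null adults against L1 larvae and 2 for the ratio. L4 neuronal IP libraries 4 to 6 alone gave 0 from L2 to L4 and 0 for the ratio, and libraries 1 to 3 alone 0 for the ratio. Adult control libraries 1 to 3 alone gave 3 in adults against L1, 2 for lin-4, 2 for lin-14 and 2 for the lin-4 effect by stage. Size-adjusted values with no further factor gave 5 for lin-14 (cdh-1 turned to 0.342), 2 for lin-4 adults against L1 and 2 for the lin-4 effect by stage, deposited normalized values gave 4 for lin-14, and a pseudocount of 10 gave 2 for lin-4 adults against L1. Without both L1 replicates 4, 2 were called from L1 to L2 in neuronal IP and 3 in input.

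With the replicate block, 5 were called in adult IP against input. Where libraries of the same number did not all vary together, it gave 1 from L1 to L2 neuronal IP, 2 for lin-4 and 2 for lin-14. It also gave 2 for lin-4 adults against L1 and 2 for the lin-4 effect by stage. At L2 IP against input cdh-3 turned to -0.462 and cdh-10 to -0.928. Leaving out single libraries, cdh-7 at L1 (IP against input) ranged from -4.199 without neuronal IP replicate 4 to 2.442 without input replicate 4.

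Leaving out single libraries, the counts ranged from 6 to 8 at L1, 4 to 7 at L2, 4 to 4 at L4 and 2 to 4 in adults (IP against input), 0 to 2 from L1 to L2, 2 to 4 from L2 to L4 and 6 to 7 in adults against L1 (neuronal IP), 0 to 2, 3 to 5 and 6 to 7 for the input steps, 1 to 4 for lin-4, 1 to 2 for lin-14, 0 for lin-28 and L1 lin-4, 1 to 2 for lin-4 adults against L1, 0 to 1 for the ratio and 1 to 1 for the lin-4 effect by stage. DESeq2 moved no count by over 1.5 times. Depth limits cdh-7 and cdh-10 in adults and most L1 libraries.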
